A study of Mus musculus with 6 samples.

Results

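The 48 genes described here encode the proteins that mark, license, open and copy origins of DNA replication, and they were picked by name from the deposited expression table of stimulated mouse CD4+ T cells. All 48 names were found, among 55401 entries, and all 48 passed the filter on low values, which asked for a mean of 10 or more and left 13170 genes to test. The cells, helper T lymphocytes from spleens of naive wild-type C57BL/6 mice, were loaded with CFSE, a dye that dividing cells dilute. They were then cultured for 48 h in RPMI with IL-2 (200 U) and stimulating antibodies to CD3 and CD28, so every library, controls included, is from activated cells. The tested medium held 5 mM itaconate, a dicarboxylate made by activated macrophages, and the control medium held 5 mM NaCl (3 libraries each). In the table the controls are headed NAC. They are taken to be the NaCl samples, the only other treatment labelled, although the letters could also mean N-acetylcysteine, and every comparison below rests on that reading. No source used here gives the age of the mice or ties each library to its own mouse or culture, so the p-values reflect only library-to-library spread, which may be technical.

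DNA replication starts in separate steps of licensing and firing. In licensing, the origin recognition complex (ORC) with CDC6 and CDT1 loads the MCM2-7 ring, the core of the replicative helicase, onto DNA, and geminin binds CDT1 to keep licensing from recurring in the same cycle. In firing, the kinase CDC7 with its activator DBF4 phosphorylates the loaded ring, which joins CDC45 and the GINS complex to form the active helicase. Polymerase alpha with primase lays primers, polymerases epsilon and delta extend them, PCNA is the clamp that holds polymerases on DNA, and replication factor C (RFC) loads that clamp. Resting T cells carry little of this machinery and build it after antigen receptor stimulation, largely through E2F transcription factors.

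Matches to E2F motifs are common in promoters of this gene class, and the promoters of 4 MCM2-7 genes are given because these genes encode subunits of the same ring and yet fell on different sides of the threshold: Mcm7 and Mcm6 rose with itaconate, and Mcm3 and Mcm5 did not pass the test. The Cdc7 promoter is added because Cdc7 had the largest change. Each is a RefSeq window on GRCm38.p6 from 250 bases before to 50 after the start listed first for the gene. It is read 5′ to 3′ on the gene's strand, with capitals at matches to an E2F motif or to CCAAT, on either strand. That start can lie inside the gene as annotated in GENCODE, as for Mcm7 (gene at chr5:138164583-138172422). The same holds for Timeless, not printed (gene at chr10:128232065-128252941, window at chr10:128237816-128238115). The E2F motifs searched were TTCCCGC, also TTGGCGC, further TTCGCGC, and lastly TTGCCGC. The windows are chr5:138171834-138172133 for Mcm7, chr1:128359656-128359955 for Mcm6 and chr1:20820263-20820562 for Mcm3, all on the minus strand, and chr8:75109259-75109558 for Mcm5 and chr5:106964072-106964371 for Cdc7 on the plus strand.
Mcm7: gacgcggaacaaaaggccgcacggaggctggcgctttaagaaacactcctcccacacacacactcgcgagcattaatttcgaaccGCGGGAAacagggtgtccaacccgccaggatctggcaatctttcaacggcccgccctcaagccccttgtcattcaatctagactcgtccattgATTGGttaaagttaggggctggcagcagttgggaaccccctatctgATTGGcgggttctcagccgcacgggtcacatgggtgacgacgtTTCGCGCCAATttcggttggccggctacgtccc
Mcm6: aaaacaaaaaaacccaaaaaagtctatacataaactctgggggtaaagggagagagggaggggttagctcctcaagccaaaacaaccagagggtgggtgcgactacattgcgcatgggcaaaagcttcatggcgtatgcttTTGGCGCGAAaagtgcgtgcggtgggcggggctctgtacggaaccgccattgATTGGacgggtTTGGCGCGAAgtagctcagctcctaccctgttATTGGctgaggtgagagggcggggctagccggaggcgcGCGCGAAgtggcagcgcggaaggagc
Mcm3: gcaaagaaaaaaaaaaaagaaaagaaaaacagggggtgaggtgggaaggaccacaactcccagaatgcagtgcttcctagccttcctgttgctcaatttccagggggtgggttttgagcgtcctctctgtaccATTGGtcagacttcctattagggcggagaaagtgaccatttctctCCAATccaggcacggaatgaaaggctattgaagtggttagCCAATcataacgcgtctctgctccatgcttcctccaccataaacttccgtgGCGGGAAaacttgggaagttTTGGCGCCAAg
Mcm5: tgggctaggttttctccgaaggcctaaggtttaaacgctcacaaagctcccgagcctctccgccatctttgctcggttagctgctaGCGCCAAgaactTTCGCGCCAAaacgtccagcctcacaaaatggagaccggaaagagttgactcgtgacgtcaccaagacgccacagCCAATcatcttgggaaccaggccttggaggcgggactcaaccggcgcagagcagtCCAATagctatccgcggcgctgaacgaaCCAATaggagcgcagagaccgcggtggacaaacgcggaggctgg
Cdc7: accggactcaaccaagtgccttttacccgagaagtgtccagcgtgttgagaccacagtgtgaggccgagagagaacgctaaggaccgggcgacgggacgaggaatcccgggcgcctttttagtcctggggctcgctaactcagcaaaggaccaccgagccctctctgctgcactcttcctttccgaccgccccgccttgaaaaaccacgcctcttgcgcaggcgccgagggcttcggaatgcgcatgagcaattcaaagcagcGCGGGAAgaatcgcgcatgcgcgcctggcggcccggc
The E2F motifs matched 3 times in the Mcm7 window, 5 in Mcm6, 3 in Mcm3, 3 in Mcm5 and 1 in Cdc7, where matches on opposite strands can overlap each other and the CCAAT box. The box, bound by NF-Y, matched 3, 2, 3 and 3 times in the MCM windows and 0 times in Cdc7. The RefSeq table had a window for 39 of the 48 genes and none for Gmnn, Mcm4, Gins1, Gins2, Gins4, Prim2, Pole, Rfc2 and Tipin. Of these 39, 23 held an E2F match (59.0%), against 9.69% of all 27025 RefSeq promoters and 17.6% of the 9758 that belong to tested genes. An E2F match was found in 12 of the 18 windows of genes that rose and in 11 of the 21 windows of genes that did not pass the test, so both classes held it. CCAAT was found in 22 of 39 windows (56.4%), against 37.9% of all promoters and 39.4% of those of tested genes. The CHR letters TTTGAA, searched on both strands, were found in 6 of 39 (15.4%), against 18.1% of all promoters and 12.05% of those of tested genes, so the direction depends on the background. A match describes letters in a window and is not a measured binding site.

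With itaconate, 22 of the 48 replication genes rose, 0 fell and 26 did not pass the test. The test was limma on log2(value + 1), itaconate over NaCl, adjusted over the 13170 tested genes by the Benjamini-Hochberg method, with a threshold of 0.05. In the same test 36.0% of all tested genes changed, 18.2% higher and 17.8% lower, whereas 45.8% of the replication genes were higher. Their median log2 fold change was 0.28, set beside −0.00095 over all tested genes, and ran from −0.22 for Orc1 to 1.08 for Cdc7. The itaconate values lay wholly above the NaCl values for 28 genes and wholly below for 0, while among all tested genes 24.2% lay wholly above and 24.2% wholly below. Changes were modest in size: only Cdc7 rose more than 2-fold among the 48. In bulk RNA, a larger share of cells in S phase and more of these transcripts per cell cannot be told apart.

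**Figure D1:**
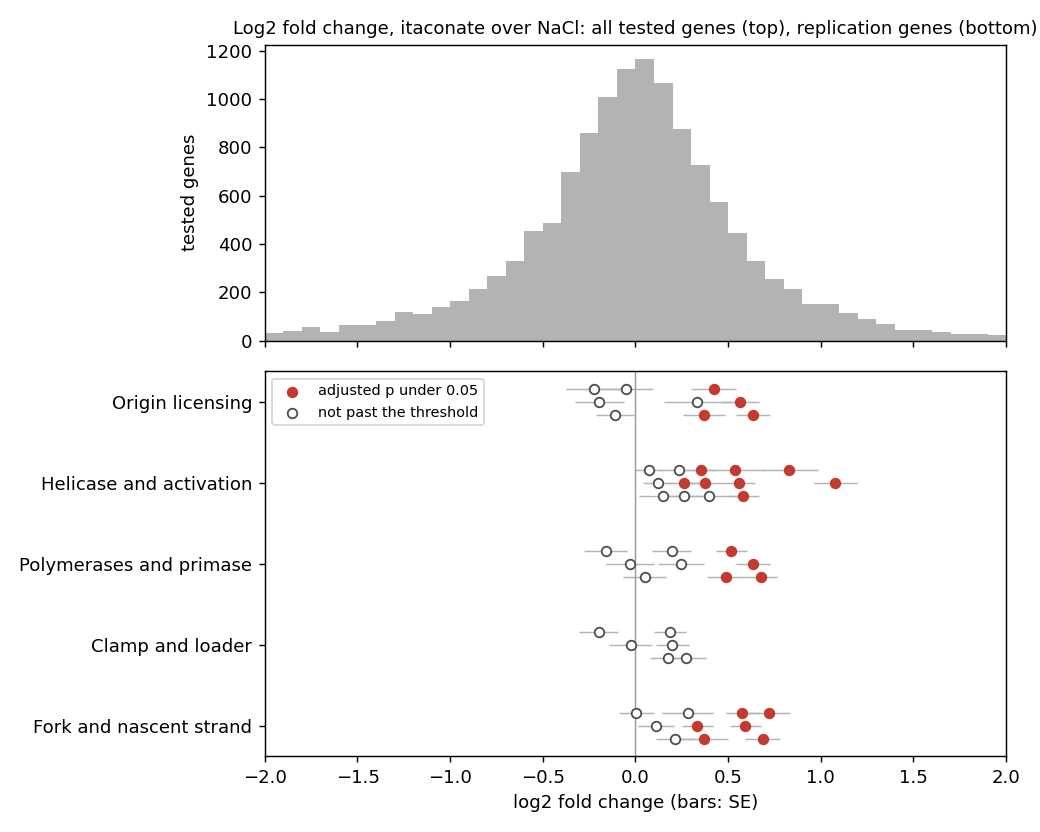
Log2 fold changes of itaconate over NaCl on the log2(value + 1) scale: a histogram of all 13170 tested genes (top; drawn from −2 to 2) and the 48 replication genes by role (bottom), with SE bars, filled where the adjusted p was under 0.05 in limma. All 14 helicase genes and all 10 fork genes lie above 0 (Timeless turns below it after upper-quartile scaling and quantile normalization), and none of the 6 clamp and loader genes is filled.

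Of the 9 licensing genes, 4 rose and 5 did not pass (median log2 fold change 0.33). The genes that rose were the loading factors, their inhibitor and the smallest ORC subunit, and the other 5 ORC subunits did not pass. With 1 of 6 higher (16.7%), ORC was near the share over all tested genes (18.2%). Cdt1, which brings the MCM ring to ORC (chr8:122568015-122573554, GRCm38), had normalized estimated counts of 3311, 3433 and 3334 in the itaconate libraries, against 2245, 1946 and 2313 in the NaCl libraries. The groups did not overlap, and the itaconate libraries were within a narrow band (log2 fold change 0.64 ± 0.091 SE, limma adjusted p = 0.000202). Gmnn, which encodes geminin (chr13:24751845-24761923), rose nearly as much, with 1186, 1255 and 1153 in the itaconate libraries, against 836, 779 and 811 in the NaCl libraries (log2 fold change 0.57 ± 0.10, limma adjusted p = 0.000845). Ratios between genes, here and below, were chosen after the values were seen and carry no test. The log2 ratio of Cdt1 to Gmnn was 1.48, 1.45 and 1.53 in the itaconate libraries, against 1.42, 1.32 and 1.51 in the NaCl libraries, and the groups overlapped.

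Cdc6, the ATPase that joins ORC on DNA, averaged 1193 ± 60.9 with itaconate and 928 ± 108 with NaCl (SD, n = 3; log2 fold change 0.37 ± 0.11, limma adjusted p = 0.0213). Within ORC, Orc6, the subunit outside the ATPase ring, rose by 0.42 ± 0.12 on the log2 scale (limma adjusted p = 0.0174), with 1181, 1022 and 900.1 in the itaconate libraries, against 829, 705 and 772 in the NaCl libraries. The Orc6 call was lost when itaconate replicate 1 was left out (adjusted p = 0.0746), and likewise for itaconate replicate 2 (0.0545) and NaCl replicate 2 (0.0750). The Cdc6 call ended without itaconate replicate 2 (0.0595), itaconate replicate 3 (0.0527) or NaCl replicate 2 (0.0945), so 2 licensing genes rose without itaconate replicate 2 or NaCl replicate 2. Both calls also ended without the intensity trend of the variance (0.0635 and 0.0655).

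The other ORC genes had log2 fold changes of −0.22 ± 0.15 for Orc1, the large ATPase subunit, −0.050 ± 0.14 for Orc2, −0.11 ± 0.10 for Orc3, 0.33 ± 0.18 for Orc4 and −0.20 ± 0.13 for Orc5 (SE; limma adjusted p from 0.171 to 0.816). Among the itaconate libraries Orc4 was the most uneven gene of the complex, while among the NaCl libraries Orc2 was. Orc4 had 1005, 1048 and 634 in the itaconate libraries, against 796, 713 and 589 in the NaCl libraries. Its itaconate replicates 1 and 2 were above every control and replicate 3 was among them. Without itaconate replicate 3 Orc4 passed, at a log2 fold change of 0.56 (limma adjusted p = 0.00597). It also passed when the replicate number was a block (limma adjusted p = 0.0282). The log2 ratio of Orc6 to Orc1 was 1.57, 1.49 and 1.56 in the itaconate libraries, against 0.83, 0.79 and 1.06 in the NaCl libraries, with no overlap. This pair was chosen by its changes in these same libraries, which favours a separation. Levels per kilobase of the annotated transcript, which allow genes to be compared, spanned 6.81-fold over the 6 subunits with itaconate and 4.56-fold with NaCl. Orc6 was the highest with itaconate (804 ± 109.6 with itaconate and 597 ± 48.2 with NaCl per kb), and Orc1 was the lowest in both groups (118 ± 15.7 with itaconate and 138 ± 16.2 with NaCl per kb; SD, n = 3).

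Of the 14 genes for the helicase and its activation, 8 rose and 6 did not pass (median log2 fold change 0.37), and all 14 changes were positive. Within the MCM2-7 ring the 6 subunits moved by unequal amounts. Mcm4 (chr16:15623897-15637400) had 5101, 5535 and 5079.5 in the itaconate libraries, against 3346, 3469 and 3679.8 in the NaCl libraries (log2 fold change 0.58 ± 0.083, limma adjusted p = 0.000189). Mcm7 rose by 0.56 ± 0.084 and Mcm6 by 0.36 ± 0.077 on the log2 scale (limma adjusted p = 0.000277 and 0.00331). Mcm2 was at 0.26 ± 0.10 (adjusted p = 0.0670), Mcm5 at 0.12 ± 0.082 (0.264) and Mcm3 at 0.073 ± 0.077 (0.492). For those 3 the itaconate libraries were still above the controls, by little: Mcm3 had 5569, 5705 and 5800.0 in the itaconate libraries, against 5417, 5259.9 and 5559.7 in the NaCl libraries.

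The genes that rose are those of the MCM4, MCM6 and MCM7 subunits, which as a subcomplex can unwind DNA in vitro, while Mcm2, Mcm3 and Mcm5 did not pass. The mean log2 value of Mcm4, Mcm6 and Mcm7 minus that of Mcm2, Mcm3 and Mcm5, was 0.30, 0.49 and 0.33 in the itaconate libraries, against −0.036, 0.11 and 0.0079 in the NaCl libraries. The groups did not overlap in this ratio, and a factor applied to a whole library would leave it nearly as it is. Its numerator and denominator were, however, split by the test on these same libraries. That choice favours a separation, so the ratio is no separate support for a division of the ring. Per kilobase of transcript, Mcm6 was the most abundant subunit in both groups (2571 ± 41.1 with itaconate and 2009 ± 79.7 with NaCl) and Mcm2 the least (987 ± 112 with itaconate and 822 ± 76.3 with NaCl; SD, n = 3). Mcm4 was near Mcm5 with itaconate and next to the lowest subunit with NaCl: Mcm4 averaged 1459.6 ± 71.6 with itaconate and 975 ± 47.0 with NaCl per kb, and Mcm5 1489.8 ± 38.0 with itaconate and 1369 ± 85.3 with NaCl per kb. With itaconate the difference between those subunits was below the SD of Mcm4. The highest and lowest of the 6 subunits differed 2.61-fold with itaconate and 2.44-fold with NaCl. The promoters of both kinds of subunit printed above held E2F and CCAAT matches. The window of Mcm2, which did not pass and is not printed, held 0 E2F matches and 1 CCAAT match.

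**Figure D2:**
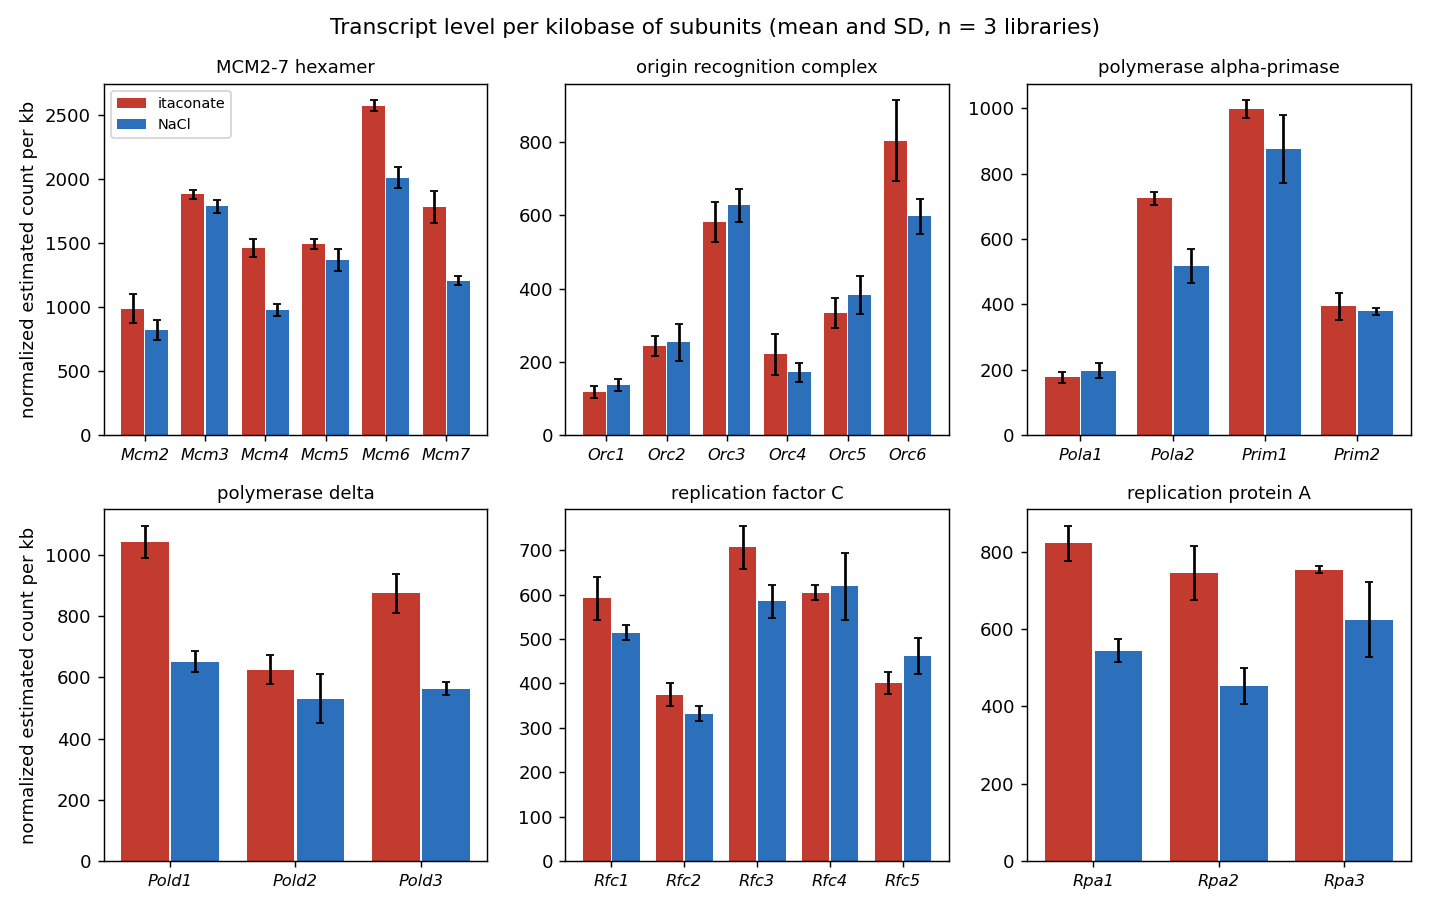
Normalized estimated counts per kilobase of the annotated principal transcript for subunits of 6 complexes (polymerase delta without Pold4), itaconate (red, left) and NaCl (blue, right). Bars are means and error bars SD of 3 libraries. Mcm4, Mcm6 and Mcm7 stand above their controls, Mcm3 and Mcm5 stand close to theirs, and Mcm2 is between (987 with itaconate and 822 with NaCl). In replication factor C the paired bars are furthest apart for Rfc3 (707 with itaconate and 585 with NaCl).

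Cdc7, the kinase that fires licensed origins (chr5:106964322-106984432), had the largest change of the 48 genes. Its normalized estimated counts were 1792, 1844 and 1473 in the itaconate libraries, against 882, 746 and 784 in the NaCl libraries. The lowest itaconate library was well above the highest control, and the fitted fold change was 2.11 (log2 fold change 1.08 ± 0.12 SE, limma adjusted p = 2.61e-05). Dbf4, the regulatory subunit without which CDC7 is inactive, rose less and unevenly, with 2270.0, 1829 and 1419 in the itaconate libraries, against 1384, 1307 and 1067 in the NaCl libraries (log2 fold change 0.54 ± 0.15, limma adjusted p = 0.0164). Itaconate replicate 3 of Dbf4 was close to NaCl replicate 1, and the call was lost when itaconate replicate 1 was left out (adjusted p = 0.0621), and also without itaconate replicate 2 (0.0573), NaCl replicate 3 (0.0792) or the intensity trend (0.0997). The log2 ratio of Cdc7 to Dbf4 was −0.34, 0.012 and 0.053 in the itaconate libraries, against −0.65, −0.81 and −0.44 in the NaCl libraries, higher in each itaconate library than in any control. Per kilobase, Dbf4 was the more abundant of the pair in both groups (766 ± 177 with itaconate and 521 ± 68.9 with NaCl), set beside 544 ± 64.3 with itaconate and 257 ± 22.4 with NaCl for Cdc7 (SD, n = 3).

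Among the factors that turn the loaded ring into the active helicase, 3 of 6 rose. Gins3, a subunit of the GINS complex (chr8:95633453-95645060), had 361, 376 and 379.8 in the itaconate libraries, against 227, 179 and 224 in the NaCl libraries, the second largest change of the 48 genes (log2 fold change 0.83 ± 0.16, limma adjusted p = 0.00131). It was also the least abundant of the 6 factors per kilobase in both groups (148 ± 3.93 with itaconate and 83.4 ± 10.8 with NaCl; SD, n = 3). The other GINS genes had smaller fold changes: Gins2 was at 0.26 ± 0.093 (adjusted p = 0.0428), Gins1 at 0.40 ± 0.16 (0.0687) and Gins4 at 0.15 ± 0.13 (0.396). Gins2 is a weak call, past the threshold in 6 of 16 alternative settings and in 0 of the 6 fits that leave out a library (adjusted p from 0.0589 without NaCl replicate 2 to 0.121 without itaconate replicate 2). Gins1 passed without NaCl replicate 1 (0.0233). Mcm10, which stimulates activation of the helicase, rose by 0.38 ± 0.10 (limma adjusted p = 0.0118), a call that ended without itaconate replicate 2 (0.0536) or NaCl replicate 2 (0.0567). Cdc45, which bridges the ring and GINS, was at 0.24 ± 0.11 (0.123) with overlapping groups, and passed without itaconate replicate 3 (0.0322). Without itaconate replicate 2, 5 of the 14 helicase genes rose.

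Of the 9 polymerase and primase genes, 4 rose and 5 did not pass (median log2 fold change 0.25). Among the catalytic subunits, those of polymerases delta and epsilon rose and that of polymerase alpha did not pass. Pold1, the catalytic subunit of polymerase delta, which copies mainly the lagging strand (chr7:44532746-44548849), had 3805, 3468 and 3526 in the itaconate libraries, against 2187, 2172 and 2384 in the NaCl libraries (log2 fold change 0.68 ± 0.086, limma adjusted p = 8.55e-05). Pole, the catalytic subunit of polymerase epsilon on the leading strand, had 2459, 2369.6 and 2491 in the itaconate libraries, against 1756, 1707 and 1649 in the NaCl libraries (log2 fold change 0.52 ± 0.085, limma adjusted p = 0.000536). Pola1, the catalytic subunit of the priming polymerase alpha, had 999, 840.0 and 994 in the itaconate libraries, against 1196, 1005 and 971 in the NaCl libraries, and the groups overlapped (log2 fold change −0.16 ± 0.12, limma adjusted p = 0.311). The log2 ratio of Pold1 to Pola1 was 1.93, 2.04 and 1.83 in the itaconate libraries, against 0.87, 1.11 and 1.29 in the NaCl libraries, and that of Pole to Pola1 was higher with itaconate by a mean of 0.68. Neither ratio overlapped between groups, whereas Pold1 over Pole did.

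Within each polymerase, some subunit genes rose and others did not pass. In polymerase delta, Pold3, an accessory subunit that binds PCNA (chr7:100082111-100121565), had 2561, 2913 and 2583 in the itaconate libraries, against 1803, 1693 and 1686 in the NaCl libraries (log2 fold change 0.63 ± 0.090, limma adjusted p = 0.000195), and Pold2, the subunit that links the others, was at 0.25 ± 0.12 (0.144). Per kilobase the 3 delta subunits were close with NaCl, 1.23-fold from the highest to the lowest, and 1.67-fold with itaconate, where Pold1 was at 1042 and Pold2 at 625 per kb. In polymerase epsilon, the B subunit gene Pole2 was at −0.032 ± 0.13 (0.871) while Pole rose, and their log2 ratio, Pole over Pole2, was higher with itaconate by a mean of 0.55, with no overlap. In polymerase alpha, the B subunit gene Pola2 rose by 0.49 ± 0.10 (limma adjusted p = 0.00241), with 1700.4, 1759 and 1800.3 in the itaconate libraries, against 1229.9, 1139 and 1391 in the NaCl libraries. The primase genes Prim1 and Prim2, catalytic and regulatory subunit, were at 0.20 ± 0.11 and 0.049 ± 0.11 (adjusted p = 0.168 and 0.774).

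**Figure D3:**
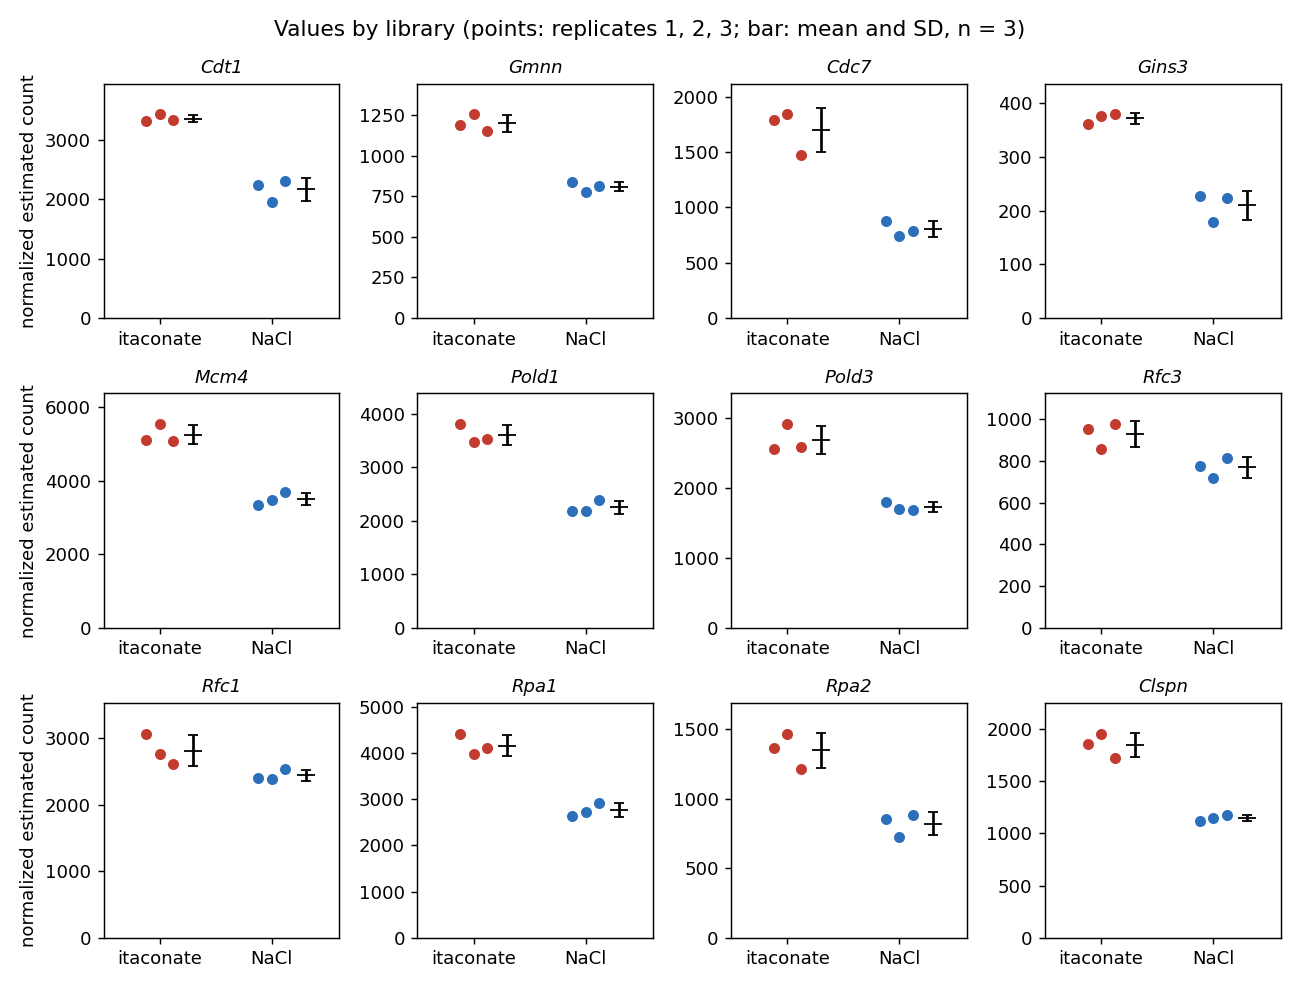
Normalized estimated counts of 12 genes in each of the 6 libraries (points, replicates 1 to 3 from left to right), itaconate left and NaCl right, with the mean and SD beside them and axes that start at 0. In each panel the 3 itaconate points are above the 3 NaCl points, by a narrow margin for Rfc1 and Rfc3, which did not pass the test.

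None of the 6 clamp and clamp loader genes passed the limma test, in either direction (2 had an unadjusted p under 0.05; median log2 fold change 0.18). Over all tested genes 18.2% were higher and 17.8% lower, so 0 of 6 is too small a count to set this role apart. Pcna and Rfc3 passed when the replicate number was a block (limma adjusted p = 0.0461 and 0.0316). Pcna, the sliding clamp, was the most abundant gene of the 48 per kilobase (5267 ± 392 with itaconate and 4628 ± 286 with NaCl; SD, n = 3). Its counts were 7362, 8083 and 8543 in the itaconate libraries, against 6977, 6617 and 7482 in the NaCl libraries, and NaCl replicate 3 was above itaconate replicate 1 (log2 fold change 0.19 ± 0.087, limma adjusted p = 0.115). After quantile normalization Pcna passed, at a log2 fold change of 0.28 (adjusted p = 0.0239). Rfc3, a small subunit of the loader, had 955, 859 and 978 in the itaconate libraries, against 776, 718 and 816 in the NaCl libraries (log2 fold change 0.27 ± 0.11, limma adjusted p = 0.0675). Rfc1, the large subunit, had 3066, 2765 and 2608 in the itaconate libraries, against 2406, 2389.8 and 2539 in the NaCl libraries (log2 fold change 0.20 ± 0.090, limma adjusted p = 0.102). In both genes every itaconate library was above every control, by a margin smaller than the range within either group. Rfc2 was at 0.17 ± 0.094, Rfc4 at −0.026 ± 0.12 and Rfc5 at −0.20 ± 0.10 (adjusted p = 0.171, 0.883 and 0.157). The threshold fell between Chaf1b and Gins2 (adjusted p = 0.0415 and 0.0428) on the inner side and Mcm2, Rfc3 and Gins1 (0.0670, 0.0675 and 0.0687) on the outer side.

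At the fork, 6 of 10 genes rose and 4 did not pass (median log2 fold change 0.35). Replication protein A (RPA) coats the DNA strand that the helicase exposes, and its large and middle subunits rose. Rpa1 (chr11:75298166-75348324) had 4422, 3979.7 and 4107 in the itaconate libraries, against 2640.3, 2716 and 2932 in the NaCl libraries (log2 fold change 0.59 ± 0.086, limma adjusted p = 0.000212). Rpa2 (chr4:132768332-132778752) had 1366, 1467 and 1216 in the itaconate libraries, against 856, 725 and 879.6 in the NaCl libraries (log2 fold change 0.72 ± 0.11, limma adjusted p = 0.000449). Neither gene overlapped between groups. Rpa3, the small subunit, was at 0.28 ± 0.14 (0.130), with NaCl replicate 3 just under the itaconate values. Per kilobase the 3 RPA subunits spanned 1.10-fold with itaconate and 1.38-fold with NaCl.

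Clspn encodes claspin, which links the fork to the checkpoint kinase CHK1 (chr4:126556935-126593903). It had 1863, 1956 and 1725 in the itaconate libraries, against 1122, 1145 and 1175 in the NaCl libraries, and the lowest itaconate library was well above all controls (log2 fold change 0.69 ± 0.093, limma adjusted p = 0.000140). Its partners in the fork protection complex did not pass: Timeless had 1786, 1912 and 1964 in the itaconate libraries, against 2073, 1771 and 1810.0 in the NaCl libraries, and Tipin was at 0.11 ± 0.10 (adjusted p = 0.973 and 0.403). The sign of the Timeless change (0.0046) turned after upper-quartile scaling and quantile normalization. The log2 ratio of Clspn to Timeless was 0.061, 0.033 and −0.19 in the itaconate libraries, against −0.89, −0.63 and −0.62 in the NaCl libraries, without overlap. Of the genes that finish Okazaki fragments, the ligase gene Lig1 rose by 0.33 ± 0.084 (limma adjusted p = 0.00792), and the flap nuclease gene Fen1 was at 0.21 ± 0.10 (0.128). The Lig1 call ended without itaconate replicate 2 (0.0523). Both genes of chromatin assembly factor 1, which places histones behind the fork, rose: Chaf1a by 0.58 ± 0.089 (limma adjusted p = 0.000366) and Chaf1b by 0.37 ± 0.13 (0.0415). Chaf1b is a weak call that ended without itaconate replicate 1 (0.106), itaconate replicate 3 (0.0960), NaCl replicate 2 (0.144) or NaCl replicate 3 (0.0745).

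The itaconate libraries resembled each other in these genes. The median of the 48 genes, as log2(value + 1) minus the NaCl mean, was 0.31, 0.28 and 0.26 in itaconate replicates 1, 2 and 3, against 0.057, −0.071 and 0.0081 in the NaCl libraries. The role groups differed more between libraries: the median of the licensing genes was 0.31, 0.35 and 0.037 in itaconate replicates 1, 2 and 3, and that of the polymerase genes was 0.25, 0.21 and 0.36. Itaconate replicate 3 was thus the lowest of its group for licensing and the highest for polymerases. Over all 48 genes it was the lowest itaconate library for 21 and the highest for 16. NaCl replicate 2 was the lowest control for 27 genes and the highest for 3, and without it 17 genes rose. The number that rose was 16 to 22 over the fits that left out a library each, and 15 of the 22 remained past the threshold in all 16 alternatives. Those 15 were Cdt1, Gmnn, Mcm4, Mcm6, Mcm7, Gins3, Cdc7, Pola2, Pold1, Pold3, Pole, Rpa1, Rpa2, Clspn and Chaf1a.

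**Figure D4:**
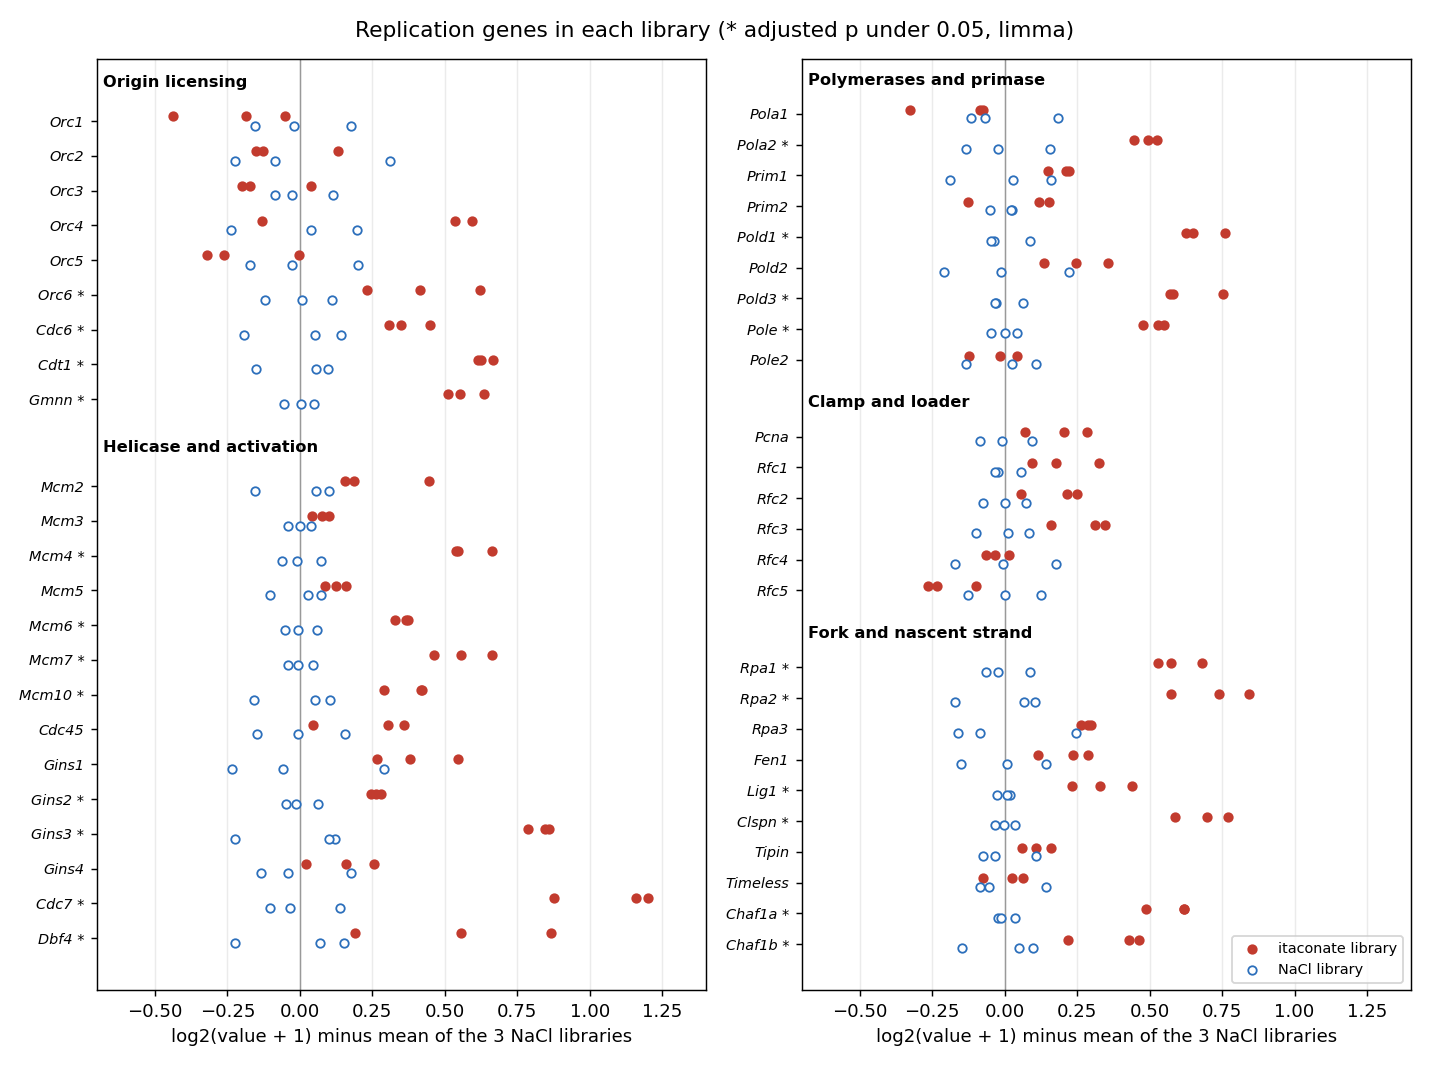
Each of the 48 replication genes in each of the 6 libraries, as log2(value + 1) minus the mean of the NaCl libraries (itaconate filled and drawn above, NaCl open), grouped by role; an asterisk marks an adjusted p under 0.05 in limma. Itaconate points lie wholly to the right of the NaCl points for 28 genes, among them Cdc7, Gins3 and Pold1, and mix with them for 20, among them Orc2 and Timeless.

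Genes of the same pathway outside the 48 moved in both directions. Of 53 such genes, 19 rose, 6 fell and 28 did not pass (median log2 fold change 0.19), set beside 18.2% higher and 17.8% lower over all tested genes. Of the lists that follow, those with 2 of 8, 1 of 12 and 2 of 7 genes higher are near the share over all genes. Among other helicase and origin factors 7 of 13 rose and 2 fell, Recql4 (−0.33 ± 0.10) and Grwd1 (−0.53 ± 0.19). Of those with the smallest p, Tonsl, which binds new histones at forks, changed by 0.97 ± 0.12, Topbp1 by 0.57 ± 0.078 and Ticrr, the partner of TOPBP1 in forming the helicase, by 0.77 ± 0.11 (SE). Among genes that control CDT1 and origin use 4 of 8 rose, Cul4b among them (0.49 ± 0.12), and the paralog Cul4a fell (−0.47 ± 0.11). Fbxo5, an inhibitor of the APC/C ubiquitin ligase that degrades geminin, changed by 0.64 ± 0.10, Cdk2 by 0.41 ± 0.084 and Dtl, the adaptor of the ubiquitin ligase that destroys CDT1, by 0.40 ± 0.090.

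Other polymerase and fork subunits were mostly below the threshold, with 1 of 12 up (the nuclease gene Dna2, 0.58 ± 0.17) and 1 down (the polymerase epsilon subunit gene Pole4, −0.44 ± 0.11), and Wdhd1 at 0.22 ± 0.10. Alternative clamp loaders and unloaders, listed together with the checkpoint clamp genes Rad9a, Rad1 and Hus1, had 2 of 8 up and 1 down. Atad5, which unloads PCNA, changed by 0.48 ± 0.11 and Chtf18 by 0.55 ± 0.17, while Dscc1, whose protein works in the same alternative loader as CHTF18, changed by −0.53 ± 0.17. Of the histone chaperones 2 of 7 rose, Asf1b (0.83 ± 0.10) and Nasp (0.37 ± 0.10), and Supt16 was at 0.19 ± 0.080. Of the checkpoint genes 3 of 5 rose and 1 fell, with Chek1, the kinase that claspin serves, at 0.38 ± 0.14 (limma adjusted p = 0.0484). The Chek1 call is near the threshold and its groups overlapped, with NaCl replicate 1 at 838 and itaconate replicate 3 at 809. The kinase gene Atr, which responds to RPA-coated DNA, changed by −0.73 ± 0.12 (limma adjusted p = 0.000437), the kinase gene Wee1 by 1.06 ± 0.17 and the ATR activator gene Etaa1 by 0.57 ± 0.13.

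Library depth was similar in both groups, at 20074299 to 22755248 estimated reads with itaconate and 21015690 to 24144999 with NaCl. The lowest group mean of any of the 48 genes was 210.1 normalized estimated counts. The CD4 T cell markers Cd3d, Cd3e, Cd3g, Cd4, Trac and Lck were abundant in all libraries, with a summed level of 45653 to 47230.4 with itaconate and 37589 to 42986 with NaCl. Of the 6, Cd3e, Cd4 and Lck rose and Cd3g fell. The 6 myeloid markers summed to 154 to 198 with itaconate and 56.1 to 90.5 with NaCl. The 2 of them that could be tested, Itgam and Cd68, rose (log2 fold changes 2.10 and 0.92), while Lyz2, Cd14, Csf1r and Adgre1 were between 0 and 9.67 in every library. The part of such cells in the replication genes was not tested. The 5 B cell markers summed to 173 to 303 with itaconate and 224 to 304 with NaCl, and the CD8 T cell markers Cd8a and Cd8b1 to 308 to 365 with itaconate and 363 to 408 with NaCl. None of the 6 genes tested from both lists passed, in limma, and 0 had an unadjusted p under 0.05. The 3 NK cell markers summed to at most 2.05 in any library, with Klre1 at 0.

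Some of these genes share sequence or exons with others, which bears on their counts because no source used here gives the strand setting. In GENCODE M21, exons of Fen1 are overlapped over 84.2% of their length by genes on the opposite strand, mainly Gm10143. Those of Gins2 are overlapped over 67.3% (Gse1), Chaf1a over 52.5% (Ubxn6) and Orc2 over 29.8% (Nif3l1). Gm10143 was low, averaging 46.9 with itaconate and 43.3 with NaCl, against 1589 and 1373 for Fen1. Gse1 and Ubxn6 had log2 fold changes of 0.21 and 0.20 and did not pass (limma adjusted p = 0.143 and 0.165). Nif3l1 fell (−0.49, limma adjusted p = 0.00824). Mcm7 overlaps Ap4m1 on the opposite strand, and Ap4m1 rose too, at 700.0, 773 and 627 with itaconate and 477, 441 and 422 with NaCl (log2 fold change 0.64, limma adjusted p = 0.00173). Of the 31-base sequences of the principal transcript, 38.0% of Pcna and 37.6% of Mcm7 also occur in transcripts of other genes, mainly Pcna-ps2 and Gm5487. Those copies held at most 77.7 and 8.22 normalized estimated counts in any library, far below Pcna and Mcm7. These counts are themselves estimates of how shared reads divide between genes, so they do not show where such reads arose. The shared part was 21.25% for Rpa3, 18.23% for Cdc6 and 15.62% for Rfc5, mainly with Gm6195, Gm9430 and Gm12870. Pole2 shares 12.8% of its 31-base sequences, mainly with Gm49384, which averaged 94.6 with itaconate and 32.9 with NaCl. The levels per kilobase use the length of a lone annotated transcript and are lower bounds where that model is longer than the RNA in these cells.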

How the data were processed

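RNA of CD4+ T cells was sequenced from 3 itaconate and 3 NaCl libraries, grouped by their titles. The values the authors deposited are RSEM estimated counts divided by a factor per library, a non-negative signal for each gene symbol in all 6 libraries. The submitters' processing notes name STAR 2.7.0f, RSEM 1.3.0 and mm10, and no source used here gives the annotation, strand setting or size factor tool. Of the values above 0, 79.9% to 82.2% came out as whole reads (tolerance 0.02 reads) and the others as fractional estimated counts. A count model that accepts fractions was not run. Symbols listed more than once kept their highest entry by mean (110 dropped, 55291 symbols left). Genes with a mean of at least 10 were fitted as log2(value + 1) with limma 3.58.1 (R 4.3.3), using an intensity trend, no covariate and two-sided tests. Fold changes are on that scale and understate changes of low genes. A change common to most genes would be hidden by the scaling. The same function was tested on simulated data. The 16 alternatives were pseudocounts of 0.1 and 10, filters of 0 and 100, median-ratio, upper-quartile and quantile scaling, the replicate number as a block, no intensity trend, robust variances and each library left out. Positions and lengths are from GENCODE M21 (GRCm38), and the promoter of a gene is its first window in the RefSeq table. Given in full are the 4 largest changes past the threshold and the 2 smallest p-values of each role, and other values in full (among them Orc4, Orc6, Mcm3, Dbf4, Pole, Pola1, Pola2, Pcna and Timeless) belong to genes chosen after their values were seen. The genes, lists and ratios were chosen with earlier results of these data known, so their counts are set beside those of all tested genes and no list was tested. A further marker list is not reported here.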

Additional observations from a re-analysis of the deposited data

How the results depend on the processing

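In no alternative did any replication gene fall past the threshold. The number that rose was 22, with 16 to 22 over the fits that left out a library, 17 without the intensity trend, 20 with no filter or upper-quartile scaling and 28 with the replicate block. The median log2 fold change of the 48 genes (0.28) was 0.26 to 0.32 over the fits that left out a library and 0.25 after upper-quartile scaling. Role counts that moved by more than 1.5 times, or off 0, in some alternative were the licensing genes (4; 2 without the intensity trend, 2 to 4 over left-out libraries), the helicase genes (8; 5 to 8 over left-out libraries) and the clamp genes (0; 1 after quantile normalization, 2 with the replicate block). Smaller moves over all alternatives were 5 licensing, 10 helicase and 5 polymerase genes at most (replicate block), and at least 5 of the 6 fork genes. Of the 22 genes that rose, 7 lost their call in at least 1 alternative and 0 changed sign. Of the 26 others, 7 passed in at least 1. Only changes near 0 turned sign: Timeless was at −0.024 after upper-quartile scaling, −0.055 after quantile normalization and −0.038 to 0.075 over left-out libraries, where Prim2 was at −0.0034 to 0.14, Pole2 at −0.10 to 0.022, Orc2 at −0.16 to 0.10 and Rfc4 at −0.11 to 0.063. The cause was not tested. Replicate numbers are not tied to a mouse or day: deviations of same-numbered libraries correlated at 0.15, 0.038 and 0.13 across genes, which are not independent, and each library correlated best with its own number, a hint only. With the replicate block 28 replication genes and 2854 of all tested genes rose, against 22 and 2400 without it. The 6 added were Mcm2 (adjusted p = 0.0138), Orc4 (0.0282), Rfc3 (0.0316), Pcna (0.0461), Gins1 (0.0492) and Pold2 (0.0498), in limma. Depth did not limit detection of these genes, and the number of libraries limits the precision.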
